A study of Lithobates pipiens with 72 samples.

Results

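The transcripts described here are those whose protein name marked them as an apolipoprotein, a serum albumin, a fetuin, an alpha-2-macroglobulin, a serpin, an inter-alpha-trypsin inhibitor chain, a retinol-binding protein or a related plasma carrier. Names of complement, coagulation and fibrinogen proteins, antithrombin, heparin cofactor and protein C inhibitor were left out. The rule found 22 of 19128 transcripts, all by name and none by measured level. The names contributed 9 alpha-2-macroglobulins, 3 apolipoprotein names, 3 serpins, 3 inter-alpha-trypsin inhibitor heavy chains, 2 retinol-binding proteins, 1 fetuin and 1 hemopexin. No name held serum albumin, alpha-1-antitrypsin or vitronectin, so the set holds no albumin.

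Whole tadpoles of the northern leopard frog, Lithobates pipiens (also called Rana pipiens), were exposed in beakers for 96 h to explosives or to control water, which was dechlorinated tap water. The tadpoles were 7 to 10 days old at the start. The nominal TNT (2,4,6-trinitrotoluene) doses were 1.5 mg/L, then 2.3 mg/L, then 3.4 mg/L, from a coat left on glass by evaporated acetone. Those of nitroguanidine (NQ) were 30, 150, 750 and 3750 mg/L. Those of methylnitroguanidine (MeNQ), which is NQ with an added methyl group, were 34, 170, 851 and 4225 mg/L. These were the same 4 molar doses, 0.3, 1.4, 7.2 and 36 mmol/L. The explosive mixture IMX-101, which contains NTO and was brought to neutral pH with NaOH, was given at 10, 20 and 40 mg/L. Each of the 4 exposures had its own control, which makes 18 groups of 4 libraries. Each library was made from RNA of 5 tadpoles of 1 beaker, fewer where RNA quality failed, per the labels, so beakers are the replicates and doses are nominal.

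In vertebrates, the liver secretes most plasma carriers and protease inhibitors. Alpha-2-macroglobulins are large relatives of complement C3 that trap a protease after it cuts their bait region. Serpins inhibit proteases by a change of shape after cleavage, inter-alpha-trypsin heavy chains attach to hyaluronan in the extracellular matrix, and apolipoproteins carry lipids. Not every member is a plasma protein. Retinol-binding protein 2 is a cellular retinol carrier of absorptive gut cells in mammals. Serpins B5 and B6 belong to the clade of serpins that act mainly inside cells, and the APOBEC2-like row names a relative of RNA-editing deaminases. Serpind1 is the gene symbol of heparin cofactor II, an inhibitor of thrombin. That row carries only the symbol, so the exclusion of heparin cofactor by name did not remove it.

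Depth ranged from 1.67 to 21.7 M estimated counts per library (M for mega), with a median of 10.8 M. The shallowest library was TNT control A, with 1 run, where the other TNT controls had 8.96 to 10.9 M. Levels are in CPM, with library totals scaled over all 72 libraries, and they were not compared between genes because the tables give no transcript lengths. Each dose was set against its own control with edgeR's quasi-likelihood test, adjusted over all transcripts tested, and a change was called at an adjusted p under 0.05. Some markers of muscle, skin, lens, neurons, liver and enterocytes were detected in every group. Depending on the group, 6 to 9 of 14 neuron and myelin rows, 3 to 4 of 11 liver enzyme rows and 1 of 7 enterocyte rows had no count. The 8 libraries of IMX-101 at 20 and 40 mg/L had 1 sequencing run each on another lane than their controls. Their contrasts with the control cannot be told apart from that difference, whereas the 10 mg/L libraries shared the run sets of the control. In RNA of whole bodies, fewer cells of a type and less RNA per cell cannot be told apart.

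Of the 22 members, 11 had a count in every library and 3 had none in any library: an alpha-2-macroglobulin-like 1 isoform X2, a partial hemopexin and a low-quality alpha-2-macroglobulin. The filter on low counts left 15 members in the TNT test and 14 in each other exposure. In all 4 exposures 13 members were tested. An apolipoprotein A1-like transcript, named for the main protein of high density lipoprotein, had counts in 9 of 72 libraries, and a second retinol-binding protein 2-like transcript had counts in 2. Counts this low bound changes of these 2 members only loosely.

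The clearest changes were in tadpoles exposed to TNT. At 3.4 mg/L, 6 of 15 tested members fell and 0 rose, where 5.61% of all tested transcripts were called lower and 6.37% higher. The members that fell were fetuin-B, 2 alpha-2-macroglobulin-like transcripts, the inter-alpha-trypsin heavy chain H3-like transcript, apolipoprotein L6-like and retinol-binding protein 2. In each of these, picked by their calls, the 4 exposed libraries lay below all 4 control libraries. The share of all transcripts without overlap is not given, so this adds nothing to the calls. The median log2 fold change was -0.68 over the tested members and 0.06 over all tested transcripts. At 2.3 mg/L 2 of 15 members fell and 0 rose, with 2.34% of transcripts called lower and 3.05% higher. At 1.5 mg/L 1 of 15 fell and 0 rose, with 1% called lower and 1.76% higher.

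**Figure D1:**
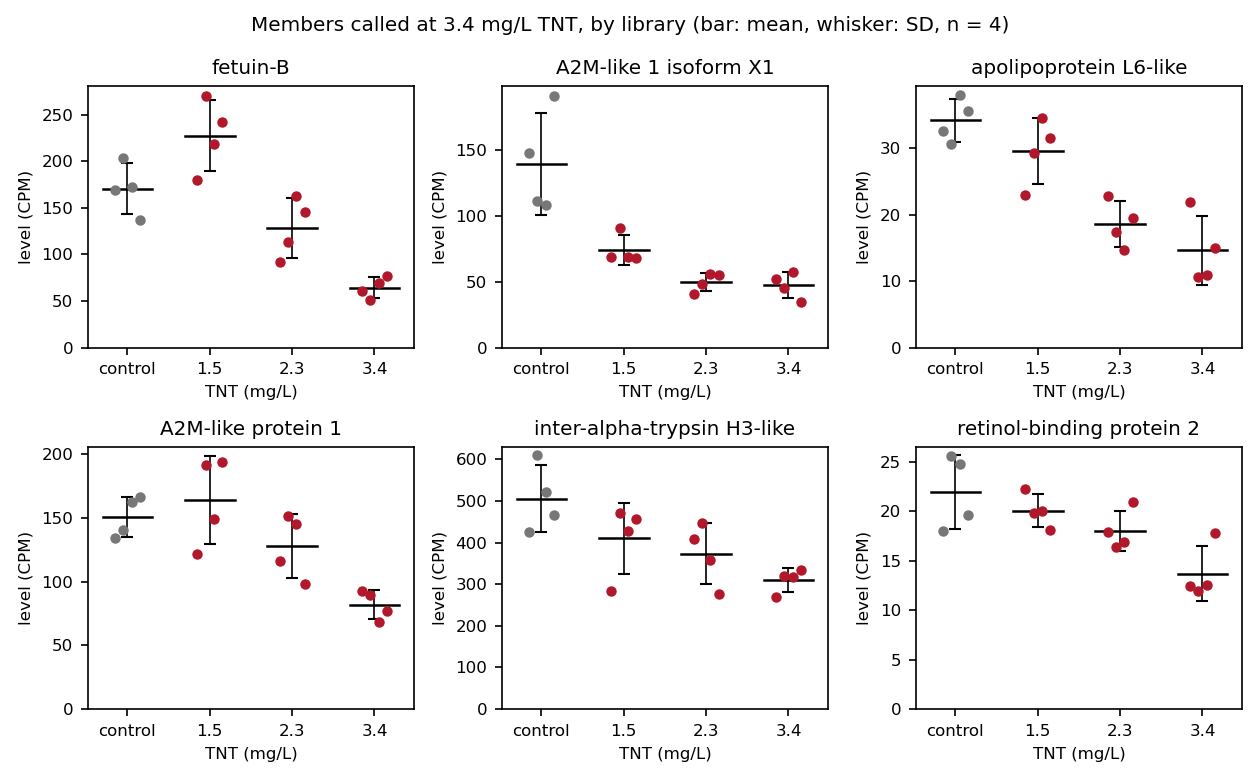
Level in CPM of members in each TNT library by nominal dose, with the control at the left and each panel starting at 0, with points for the 4 libraries of a group and bars for the mean ± SD. Fetuin-B averaged 228 CPM at 1.5 mg/L, overlapping the controls, and lay between 51.1 and 76.5 CPM at 3.4 mg/L, whereas alpha-2-macroglobulin-like 1 isoform X1 was already below every control at 1.5 mg/L.

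Among the protease-trapping alpha-2-macroglobulins, the transcript named alpha-2-macroglobulin-like 1 isoform X1 (transcript 195242) changed at the lowest dose. It had 52.2, 45.4, 57.3 and 34.7 CPM at 3.4 mg/L TNT, against 147, 112, 108 and 191 CPM in TNT controls. The log2 fold change was -1.53 ± 0.20 (SE, n = 4 each, adjusted p = 0.000152). In order of dose, the mean level was 139 ± 38.6 CPM in controls, 74.0 ± 11.3 at 1.5 mg/L, 49.9 ± 7.00 at 2.3 mg/L and 47.4 ± 9.77 at 3.4 mg/L (SD, n = 4 each). All exposed libraries at every dose lay below all controls. The change was -0.91 at 1.5 mg/L (adjusted p = 0.0227) and -1.48 at 2.3 mg/L (adjusted p = 0.000380). At 1.5 mg/L the call was lost when any of TNT control A, TNT control D or the exposed libraries A, C or D was left out, with adjusted p between 0.0543 and 0.0740.

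The shorter-named alpha-2-macroglobulin-like protein 1 (transcript 195194), from the same protein family, was called only at the highest dose. It had 93.0, 89.3, 68.3 and 76.8 CPM at 3.4 mg/L TNT, against 134, 140, 162 and 166 CPM in controls, a log2 fold change of -0.85 ± 0.16 (SE, adjusted p = 0.00278). The lower doses overlapped the controls, with log2 fold changes of 0.13 at 1.5 mg/L and -0.23 at 2.3 mg/L (adjusted p = 0.887 and 0.582). Because reads may be split between close relatives, the 8 alpha-2-macroglobulin rows other than CPAMD8 were also summed, a choice made after their values were seen. The sum lay between 119 and 162 CPM at 3.4 mg/L TNT, against 256 to 360 CPM in controls (log2 fold change -1.07 ± 0.14 SE, adjusted p = 0.000112). At 2.3 mg/L the sum changed by -0.69 (adjusted p = 0.00667) and at 1.5 mg/L by -0.23 (adjusted p = 0.564). In TNT controls the sum averaged 293 CPM, of which isoform X1 supplied 139 CPM and alpha-2-macroglobulin-like protein 1 supplied 151 CPM. The change of the sum thus largely restates those of these 2 transcripts and is no separate check over 8 relatives.

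A further relative was seen in few libraries. The transcript named simply alpha-2-macroglobulin (transcript 195180) had counts in 8 of 72 libraries. It had 173, 0, 40 and 48 counts at 3.4 mg/L TNT and 0 counts in all 4 TNT controls. At 1.5 mg/L it had 133, 2, 3 and 0 counts, so its level was set by 1 to 3 libraries of a group and no change was called by edgeR. CPAMD8, named for its C3-like and alpha-2-macroglobulin domains, overlapped its control at every TNT dose. Its means were 49.2 ± 2.47 CPM at 3.4 mg/L and 44.1 ± 16.3 CPM in controls.

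Fetuin-B (transcript 478066), a cystatin-family plasma glycoprotein that inhibits an egg-coat protease in mammals, had 60.9, 51.1, 69.0 and 76.5 CPM at 3.4 mg/L TNT. TNT controls had 170, 204, 172 and 136 CPM. The exposed libraries were all below the controls, and the log2 fold change was -1.38 ± 0.19 (SE, adjusted p = 0.000218). In order of dose the mean was 170 ± 27.6 CPM in controls, 228 ± 38.3 at 1.5 mg/L, 129 ± 32.0 at 2.3 mg/L and 64.4 ± 10.9 at 3.4 mg/L (SD, n = 4 each). The mean at 1.5 mg/L was above the highest control, but the libraries overlapped and the change of 0.42 (95% interval 0.02 to 0.82) was not called (adjusted p = 0.345). At 2.3 mg/L the libraries also overlapped (log2 fold change -0.40, adjusted p = 0.297).

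Of the inter-alpha-trypsin heavy chains, the H3-like transcript (053491) had 269, 321, 317 and 333 CPM at 3.4 mg/L TNT, against 425, 612, 521 and 466 CPM in controls. The log2 fold change was -0.68 ± 0.17 (SE, adjusted p = 0.0142), and no exposed library reached the lowest control. The changes at 1.5 and 2.3 mg/L were -0.30 and -0.43 (adjusted p = 0.507 and 0.181). The H5-like heavy chain was low in all groups, between 4.34 and 10.4 CPM over 72 libraries, and its change at 3.4 mg/L was -0.20 ± 0.24 (SE, adjusted p = 0.755).

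Apolipoprotein L6-like (transcript 379082) belongs to a family of lipid-binding proteins that in humans lie largely inside cells. It had 21.9, 10.6, 10.9 and 15.04 CPM at 3.4 mg/L TNT, against 32.5, 30.6, 37.9 and 35.6 CPM in controls. The log2 fold change was -1.20 ± 0.22 (SE, adjusted p = 0.00200), and all 4 exposed libraries lay below the controls. At 2.3 mg/L it had 22.8, 17.4, 14.6 and 19.5 CPM, again below every control (log2 fold change -0.88, adjusted p = 0.0306). That call was lost when any of TNT controls C or D or the 2.3 mg/L libraries B, C or D was left out, with adjusted p between 0.0627 and 0.0976. The APOBEC2-like transcript varied widely, with 19.7, 16.0, 0 and 0 CPM at 3.4 mg/L TNT and 17.4, 17.1, 16.8 and 10.2 CPM in controls, and was not called.

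Retinol-binding protein 2 (transcript 217105) had 12.4, 11.96, 12.6 and 17.85 CPM at 3.4 mg/L TNT, against 17.99, 25.6, 24.8 and 19.6 CPM in controls. The groups did not overlap but nearly touched, exposed library D against control A, which was the shallowest library. The log2 fold change was -0.66 ± 0.16 (SE, adjusted p = 0.0142). The adjusted p was 0.0538 without exposed library B.

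No serpin was called at a TNT dose. Serpind1 had 212, 207, 186 and 219 CPM at 3.4 mg/L TNT, against 228, 173, 225 and 215 CPM in controls, with a log2 fold change of 0.00 and a 95% interval from -0.26 to 0.26. Serpin B6 changed by -0.09 and serpin B5-like by 0.09 at that dose, and neither was called. Over the 4 TNT groups, a slope per dose step was called lower for the same 6 members and higher for 0 of 15, where 5.4% of transcripts were called lower and 6.11% higher. The slopes were -0.51 for alpha-2-macroglobulin-like 1 isoform X1, -0.51 for fetuin-B and -0.43 for apolipoprotein L6-like. They were -0.29 for alpha-2-macroglobulin-like protein 1, -0.22 for the H3-like heavy chain and -0.21 for retinol-binding protein 2, all as log2 change per step.

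Lists of other genes gave the surroundings of these changes, and their part in the members' changes was not tested. Of enterocyte markers, 5 of 6 tested fell at 3.4 mg/L TNT and 0 rose, with a median log2 fold change of -0.88. Maltase-glucoamylase, which digests starch at the gut brush border, averaged 1576 ± 329 CPM at 3.4 mg/L and 3572 ± 714 CPM in controls (log2 fold change -1.15, adjusted p = 0.000219). The sodium/glucose cotransporter 1-like transcript changed by -0.92 and angiotensin-converting enzyme 2 by -0.90. The summed level of the list was 2240 to 3625 CPM at 3.4 mg/L and 5019 to 6746 CPM in controls. Maltase-glucoamylase made up a large part of this sum, and 1 marker in the list was at 0 in the control libraries. Whether these changes and that of retinol-binding protein 2 are linked was not tested.

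Other liver-made plasma proteins were mixed: 3 of 13 tested fell and 3 rose, with a median log2 fold change of -0.21. Their summed level was 4767 to 5351 CPM at 3.4 mg/L and 6360 to 7061 CPM in controls. Transthyretin, a carrier of thyroid hormone, averaged 116 ± 30.4 CPM at 3.4 mg/L TNT and 562 ± 85.8 CPM in controls (log2 fold change -2.25, adjusted p = 5.36e-06). Complement C3 averaged 1292 ± 135 CPM at 3.4 mg/L and 2139 ± 115 CPM in controls (log2 fold change -0.70, adjusted p = 5.57e-05). The acid labile subunit of the insulin-like growth factor complex averaged 39.1 ± 3.65 CPM at 3.4 mg/L and 22.2 ± 2.48 CPM in controls (log2 fold change 0.85, adjusted p = 0.000109).

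Non-secreted liver enzymes did not fall as a list. Of 7 tested, 1 rose, 1 fell and the median log2 fold change was 0.41, against 0.06 over all transcripts. The bile salt export pump, which moves bile acids out of hepatocytes, averaged 24.2 ± 7.98 CPM at 3.4 mg/L TNT and 8.29 ± 0.948 CPM in controls (log2 fold change 1.56, adjusted p = 0.000478). Glycine N-methyltransferase-like changed by -0.41 (adjusted p = 0.0382). The summed level of the list was 582 to 637 CPM at 3.4 mg/L and 396 to 530 CPM in controls. A link between this sum and the levels of the members was not tested. Of 10 tested transcripts of lipoprotein handling, 1 rose and 0 fell. It was a low density lipoprotein receptor listed at 0 in all 4 controls, with a mean of 2.28 ± 1.00 CPM at 3.4 mg/L. It passed the filter on low counts through exposed libraries alone and could only come out as higher, so nothing is drawn from this call. Of 10 tested retinoid-handling transcripts, 1 rose, retinol dehydrogenase 5, by 0.69 (adjusted p = 0.000860). In the tissue checks at that dose, 2 of 9 muscle, 2 of 11 keratin, 4 of 6 lens crystallin and 1 of 6 neuron and myelin transcripts fell and 0 rose. Summed levels of 3 of these lists also lay below their controls without overlap. The share of other such sums without overlap is not given, and abundant transcripts weigh most in a sum, so this adds nothing to the calls. Keratins had 1025 to 1627 CPM at 3.4 mg/L and 2184 to 3444 CPM in controls. Lens crystallins had 1485 to 1930 CPM at 3.4 mg/L and 2253 to 2890 CPM in controls. Neuron and myelin transcripts had 168 to 225 CPM at 3.4 mg/L and 258 to 400 CPM in controls, although the median log2 fold change of the 6 tested was 0.30. Muscle overlapped, with 23600 to 29180 CPM at 3.4 mg/L and 24910 to 32700 CPM in controls.

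Under IMX-101, the members called at more than 1 dose were Serpind1 and CPAMD8. Serpind1 rose at all 3 doses and CPAMD8 fell at 20 and 40 mg/L. At 40 mg/L, 1 of 14 tested members rose and 1 fell, where 3.84% of all transcripts were called higher and 3.68% lower. At 20 mg/L, 2 of 14 rose and 1 fell, with 2.66% called higher and 2.55% lower. At 10 mg/L, 1 of 14 rose and 0 fell, with 0.718% called higher and 0.271% lower. At that dose 5 of 14 members and 1250 of 12542 transcripts had an unadjusted p under 0.05 by edgeR. Alpha-2-macroglobulin-like 1 isoform X1, which fell under TNT, changed there by 1.06 (95% interval 0.36 to 1.76, adjusted p = 0.181) and overlapped its controls. At 20 and 40 mg/L it changed by 0.23 and 0.17 (adjusted p = 0.837 and 0.889). The members' median log2 fold change at 40 mg/L was 0.16, against -0.05 over all transcripts.

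**Figure D2:**
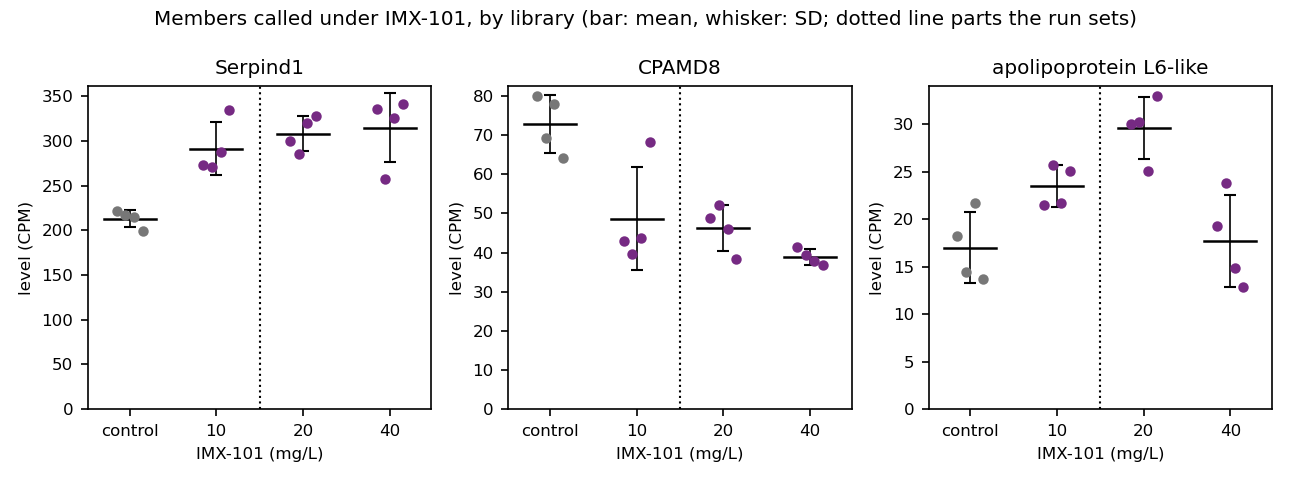
Level in CPM of members in each IMX-101 library by dose (control, 10, 20 and 40 mg/L), with points for the 4 libraries of a group and bars for the mean ± SD. The dotted line parts the libraries by run set, with the 20 and 40 mg/L libraries to its right. Every exposed library of Serpind1 lies above its 4 controls, which span 199 to 222 CPM.

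Serpind1 (transcript 310322), named for the thrombin-inhibiting serpin, had 335, 258, 325 and 342 CPM at 40 mg/L IMX-101, against 222, 217, 215 and 199 CPM in controls. All 4 exposed libraries were above the controls (log2 fold change 0.56 ± 0.09 SE, adjusted p = 0.00139). In order of dose the mean was 213 ± 9.80 CPM in controls, 292 ± 29.7 at 10 mg/L, 308 ± 19.2 at 20 mg/L and 315 ± 38.7 at 40 mg/L (SD, n = 4 each). The log2 fold change was 0.45 ± 0.09 (SE) at 10 mg/L, within the run sets of the control, with 273, 270, 288 and 335 CPM and an adjusted p of 0.0252. The call at 10 mg/L was lost when any of the 8 libraries of the 2 groups was left out, with adjusted p between 0.0557 and 0.0868 and log2 fold changes between 0.37 and 0.48. At 20 mg/L the change was 0.53 (adjusted p = 0.00410).

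CPAMD8 (transcript 099392) had 41.4, 39.4, 37.8 and 36.8 CPM at 40 mg/L IMX-101, against 80.0, 69.2, 78.1 and 64.1 CPM in controls. The groups did not overlap, and the log2 fold change was -0.90 ± 0.16 (SE, adjusted p = 0.00240). At 20 mg/L it had 48.8, 52.1, 46.1 and 38.4 CPM (log2 fold change -0.65, adjusted p = 0.0270). That call was lost without control A or C or without 20 mg/L library C or D, with adjusted p between 0.0550 and 0.0908. At 10 mg/L, where exposed and control libraries shared run sets, 3 libraries had 43.0, 39.7 and 43.8 CPM and the other had 68.3 CPM, within the control range (log2 fold change -0.58, adjusted p = 0.109).

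Apolipoprotein L6-like was called at the middle dose alone, with 30.1, 30.3, 25.2 and 33.1 CPM at 20 mg/L IMX-101, against 18.3, 14.4, 21.7 and 13.7 CPM in controls. The log2 fold change was 0.80 ± 0.19 (SE, adjusted p = 0.0297). The call was lost without control A, B or D or without 20 mg/L library A, B or D, with adjusted p between 0.0529 and 0.0964. At 40 mg/L its level was 17.7 ± 4.85 CPM and its change 0.06 (adjusted p = 0.950). Within the run set that held both higher doses, 40 against 20 mg/L gave a log2 difference of -0.74, with a 95% interval from -1.16 to -0.32 and an adjusted p of 0.172.

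The remaining members were not called at 40 mg/L IMX-101. Fetuin-B had 986, 758, 1082 and 1462 CPM, against 799, 703, 692 and 876 CPM in controls (log2 fold change 0.48 ± 0.15 SE, adjusted p = 0.0683). Without 40 mg/L library B, fetuin-B (0.62) and alpha-2-macroglobulin-like protein 1 (0.74) were also called, which made 4 calls. At 40 against 20 mg/L, 0 of 14 members were called by edgeR, with 0.303% of all transcripts called in either direction. At an unadjusted p under 0.05 there were 3 of 14 members and 9.91% of all transcripts. In that comparison Serpind1 differed by 0.03 (95% interval -0.16 to 0.23) and CPAMD8 by -0.25 (-0.59 to 0.08). The slope per dose step was 0.18 for Serpind1 (adjusted p = 0.00848) and -0.28 for CPAMD8 (adjusted p = 0.00271). That made 1 of 14 members called higher and 1 lower, with 3.71% of transcripts called higher and 4.02% lower. The 20 and 40 mg/L steps had another run set than the control, so these slopes cannot be told apart from that difference.

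Of the other liver-made plasma proteins, 5 of 13 tested rose at 40 mg/L IMX-101 and 1 fell, with a median log2 fold change of 0.47. Fibrinogen beta chain-like, a clot protein, averaged 5977 ± 839 CPM at 40 mg/L and 3970 ± 257 CPM in controls (log2 fold change 0.59, adjusted p = 0.00101). Kininogen-1, the precursor of kinins, rose by 0.47, the iron carrier serotransferrin-B by 0.66 and selenoprotein Pb-like by 0.85. The acid labile subunit changed by -0.79 at 40 mg/L IMX-101 (adjusted p = 0.00808), where TNT at 3.4 mg/L gave 0.85. Microsomal triglyceride transfer protein, which loads lipid onto nascent lipoproteins, averaged 24.8 ± 6.32 CPM at 40 mg/L and 10.3 ± 1.61 CPM in controls (log2 fold change 1.27, adjusted p = 0.000823). It was 1 of 9 tested lipoprotein-handling transcripts that rose, and 0 fell. Of liver enzymes 1 of 7 rose, glycine N-methyltransferase-like, by 0.97. Enterocyte markers had 0 of 6 called, with a summed level of 1940 to 2993 CPM at 40 mg/L and 2502 to 3757 CPM in controls. Of 9 tested muscle transcripts 2 rose and 2 fell. Of the lens crystallins 5 of 6 rose, with a median log2 fold change of 0.79. At 10 mg/L, within the run sets of the control, 4 of 6 lens crystallins rose and 0 fell, with a median of 0.54, and 1 of 13 other plasma proteins rose and 0 fell, with a median of 0.30. The comparisons at 40 mg/L share the run-set difference.

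**Figure D3:**
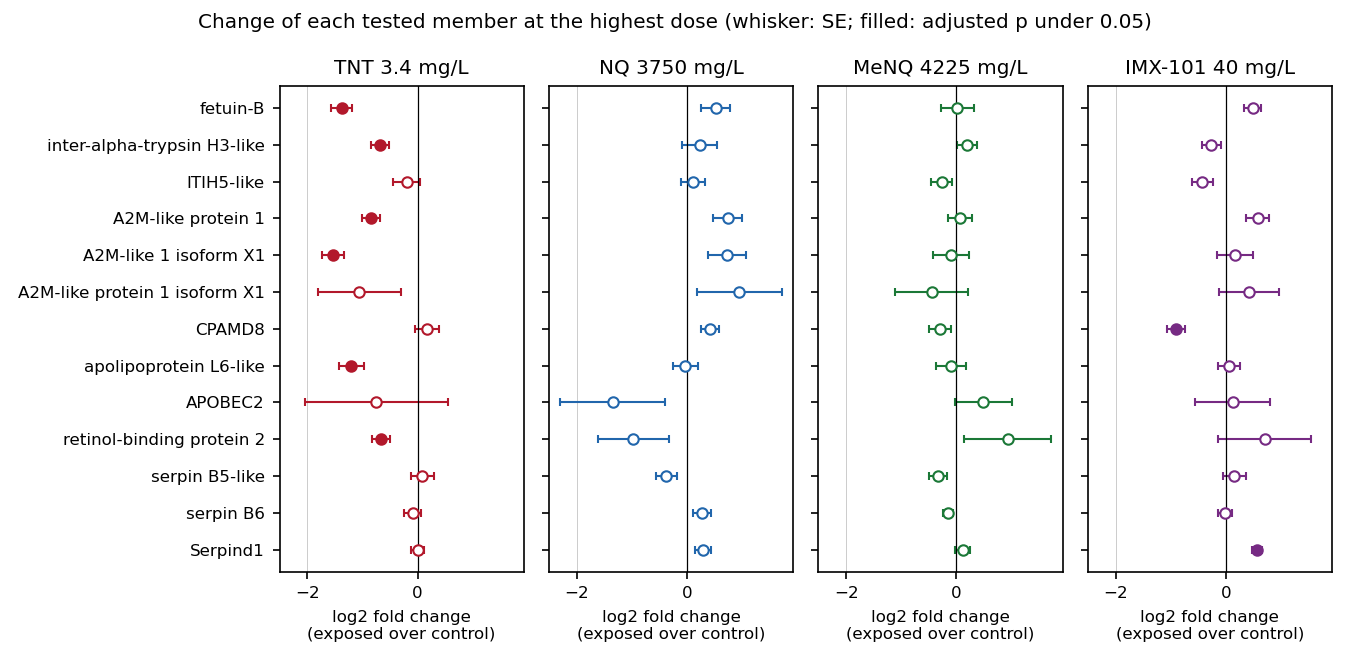
Log2 fold change of each member tested in all 4 exposures at the highest dose (exposed over control, 1 panel per exposure, all on 1 scale), with whiskers for 1 SE and filled points for an adjusted p under 0.05. The filled points lie left of 0 in the TNT panel, whereas IMX-101 has Serpind1 to the right and CPAMD8 to the left, and the NQ and MeNQ panels hold none.

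Neither nitroguanidine changed a member past the threshold. With edgeR, 0 of 14 members were called at any NQ dose, where 0%, 0.0154%, 0% and 4.48% of all transcripts were called at 30, 150, 750 and 3750 mg/L. At an unadjusted p under 0.05 there were 2, 3, 1 and 2 of 14 members in the same order of dose, where 8.15%, 7.55%, 6.75% and 16.3% of all transcripts passed. DESeq2 called 0 members at each dose, but its share over all transcripts is not given. At 3750 mg/L the nearest was alpha-2-macroglobulin-like protein 1, with 355, 196, 210 and 289 CPM, against 211, 84.9, 193 and 143 CPM in NQ controls. The ranges overlapped, and the log2 fold change was 0.74 with a 95% interval from 0.19 to 1.29 (adjusted p = 0.131). Fetuin-B changed by 0.52 (-0.03 to 1.07) and Serpind1 by 0.29 (-0.03 to 0.61) at that dose. CPAMD8 had 74.6, 84.0, 64.9 and 64.3 CPM, all above its controls at 58.5, 57.1, 61.3 and 39.1 CPM, and its change of 0.42 was not called (adjusted p = 0.166). It was the 1 of 14 members without overlap at that dose. The share of all transcripts without overlap is not given, so the lack of overlap adds nothing to the test.

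With MeNQ, 0 of 14 members were called by edgeR at any dose, where 0%, 0.156%, 0.437% and 0.393% of transcripts were called at 34, 170, 851 and 4225 mg/L. At an unadjusted p under 0.05 there were 1, 4, 4 and 0 of 14 members, where 4.83%, 9.59%, 11.8% and 10% of all transcripts passed. DESeq2 called 0 members at each dose, again without its share over all transcripts. The smallest adjusted p by edgeR was at 851 mg/L, where alpha-2-macroglobulin-like 1 isoform X1 had 110, 67.1, 63.6 and 109 CPM, against 36.5, 52.0, 58.7 and 32.9 CPM in controls. No exposed library overlapped the controls there, and the log2 fold change was 0.97 (adjusted p = 0.228). At that dose 4 of 14 members had no overlap, some above and some below their controls. The share of all transcripts without overlap is not given, so nothing is drawn from this. At 4225 mg/L its change was -0.10 with a 95% interval from -0.80 to 0.59, and fetuin-B changed by 0.02 (-0.62 to 0.65). The slope per dose step was called for 0 of 14 members in each compound, where 1.23% of transcripts were called for NQ and 0.0889% for MeNQ. In each compound 1 of 14 members had a slope at an unadjusted p under 0.05, as did 12.8% of all transcripts for NQ and 8.2% for MeNQ.

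MeNQ and NQ were compared at their 4 matched molar doses, 15 members at each, by the difference of their log2 fold changes over own controls. By edgeR 0 of 15 differences were called at any dose, where 0.0213%, 0.128%, 0.114% and 0.626% of transcripts were called at 0.3, 1.4, 7.2 and 36 mmol/L. At an unadjusted p under 0.05 there were 2, 4, 5 and 2 of 15 members, where 7.77%, 9.62%, 8.53% and 12.6% of all transcripts passed. At 1.4 mmol/L the smallest adjusted p was that of alpha-2-macroglobulin-like 1 isoform X1, which averaged 89.4 ± 37.6 CPM with MeNQ and 45.0 ± 12.3 CPM in MeNQ controls, and 24.5 ± 2.44 CPM with NQ and 45.1 ± 14.3 CPM in NQ controls. The difference of changes was 1.86 with a 95% interval from 0.86 to 2.87 (adjusted p = 0.135). Apolipoprotein L6-like differed by 1.24 (0.51 to 1.97, adjusted p = 0.171) at that dose. The sparse alpha-2-macroglobulin S homeolog had 46 counts over the MeNQ group and 0 over the NQ group there, with 8 in MeNQ controls and 7 in NQ controls (adjusted p = 0.416). At 36 mmol/L, CPAMD8 differed by -0.74 (-1.26 to -0.21, adjusted p = 0.199), fetuin-B by -0.52 (-1.35 to 0.31) and Serpind1 by -0.20 (-0.62 to 0.22). At that dose the interval of retinol-binding protein 2 ran from -0.25 to 4.02. CPAMD8 differed by -0.66 (-1.19 to -0.13) at 0.3 mmol/L and by -0.77 (-1.30 to -0.24) at 7.2 mmol/L. At 1.4 mmol/L it differed by 0.002 (-0.53 to 0.53). None of these was called, and the doses of a compound share their controls. These intervals leave room for differences in either direction in most members, so the 2 compounds are not shown to act alike on them.

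**Figure D4:**
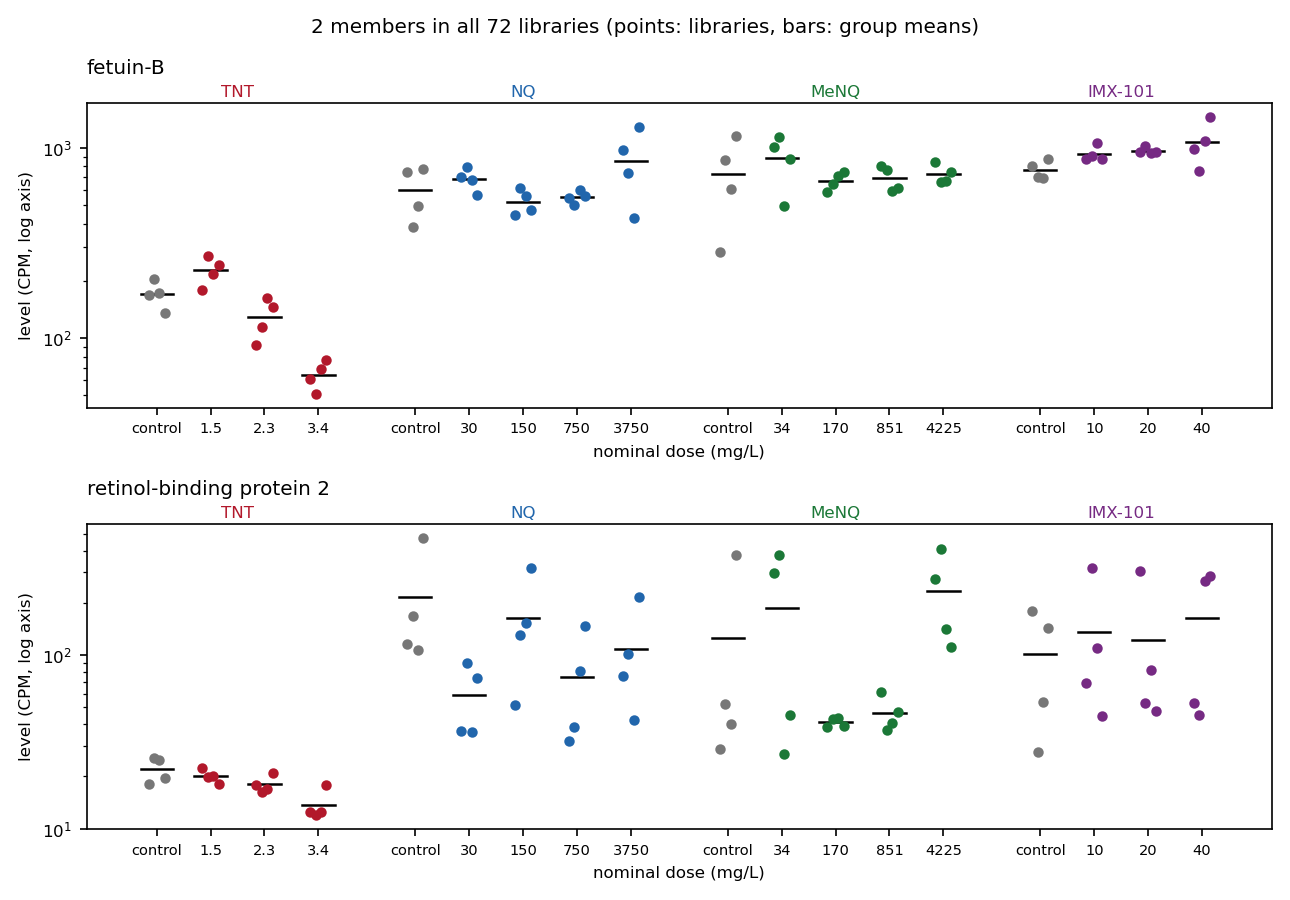
Level in CPM on a log axis of fetuin-B and retinol-binding protein 2 in all 72 libraries, grouped by exposure and ordered by dose from each control. All TNT libraries lie at the low end for both transcripts, and retinol-binding protein 2 scatters between libraries of the same group outside the TNT experiment.

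Levels differed between the experiments before any exposure, and here experiment, cohort and sequencing cannot be told apart. Fetuin-B had 136 to 204 CPM in TNT controls, 382 to 779 CPM in NQ controls, 285 to 1159 CPM in MeNQ controls and 692 to 876 CPM in IMX-101 controls. The H3-like heavy chain ran the other way, with 425 to 612 CPM in TNT controls and 128 to 328 CPM over the other controls. Alpha-2-macroglobulin-like 1 isoform X1 had 108 to 191 CPM in TNT controls and 22.2 to 76.5 CPM in the other controls. Serpind1 was the most even of these, with 173 to 228 CPM in TNT controls and 181 to 300 CPM in the others.

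Retinol-binding protein 2 stood apart by its scatter within groups. It had 296, 375, 26.9 and 44.9 CPM in the 4 libraries of 34 mg/L MeNQ, a ratio of highest to lowest of 13.95. Over 18 groups the median of that ratio was 4.51, against 1.25 to 1.78 in the other 10 members with a count in every library. In MeNQ control D the 2 sequencing runs of the library gave 391 and 387 CPM, and in MeNQ control A 27.8 and 32.1 CPM, so the scatter was between libraries and not between runs. Across 62 libraries with 2 runs, Pearson's r of log2(CPM + 1) between runs was 0.995 for retinol-binding protein 2 and 0.999 for fetuin-B, a description of repeat sequencing. It was 0.354 for CPAMD8 and 0.511 for Serpind1, so the order of single libraries in these 2 transcripts was less repeatable between runs. A low r was not particular to them, with 0.337 for the H5-like heavy chain and 0.269 for the APOBEC2-like transcript. The median ratio of the larger to the smaller run, of CPM + 1, was 1.19 for CPAMD8 and 1.16 for Serpind1. It was 1.135 for apolipoprotein L6-like and 1.13 for the H3-like heavy chain. CPAMD8 and Serpind1 were also called under IMX-101, where libraries of the higher doses had another run set than their controls. Those libraries had a single run each and are not among the 62, so their repeatability is not known. Whether run differences had a part in the calls at those doses was not tested.

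Variation between beakers of the same group gave a further description of the members. For each tested member, deviations of log2 levels from the group mean were correlated across the 72 libraries with those of 9026 named transcripts, a measure chosen after values were seen. The points share libraries, depth and tissue makeup, and no p is given. The H3-like heavy chain varied most closely with cartilage genes: collagen IX alpha 1 (Pearson's r = 0.80, Spearman's rho = 0.76), collagen XI alpha 1 (r = 0.79), epiphycan (r = 0.78) and hyaluronan and proteoglycan link protein 1-like (r = 0.77). Without the 2 libraries farthest from the median, r with collagen IX alpha 1 was 0.71, and within exposures it was 0.68 for TNT, 0.92 for NQ, 0.76 for MeNQ and 0.49 for IMX-101. At 3.4 mg/L TNT, collagen IX alpha 1 averaged 574 ± 64.0 CPM, against 1268 ± 193 CPM in controls (log2 fold change -1.12, adjusted p = 0.000167). Collagen XI alpha 1 changed by -0.90 and epiphycan by -0.64, both called, whereas the link protein changed by -0.43 and was not.

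**Figure D5:**
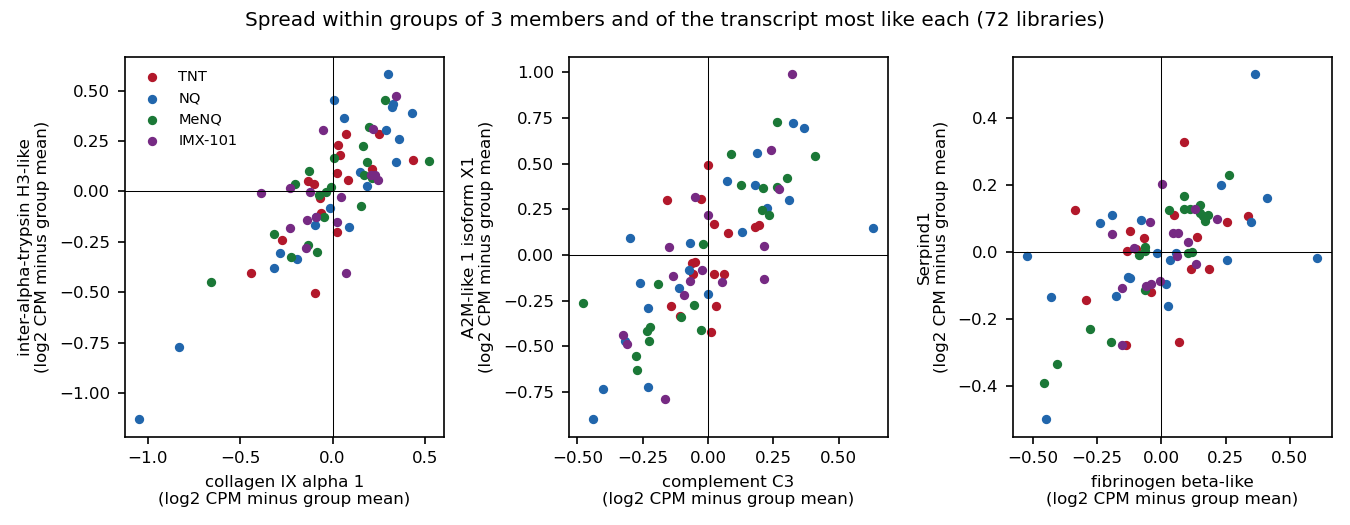
Deviation of log2 level from the group mean in each of the 72 libraries for 3 members (vertical axes) and the transcript most like each by Pearson's r (horizontal axes), coloured by exposure. The left panel (r = 0.80) has 2 NQ libraries far at the lower left, and in the middle panel the TNT points follow complement C3 less closely (r = 0.21) than those of the other exposures.

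Alpha-2-macroglobulin-like 1 isoform X1 varied most closely with complement C3, the central protein of the complement cascade and a relative in structure (r = 0.77, rho = 0.79, and r = 0.74 without the 2 farthest libraries). Within exposures r was 0.80 for NQ, 0.86 for MeNQ, 0.75 for IMX-101 and 0.21 for TNT. Next were complement C2 (r = 0.68) and complement C5 (r = 0.67). Alpha-2-macroglobulin-like protein 1 had weaker likeness, with r of 0.58 to the low-level transcript Cstf3 and of 0.56 to Ambp. Ambp, the precursor of the light chain of inter-alpha-trypsin inhibitor, changed by -0.70 at 3.4 mg/L TNT (adjusted p = 0.000493). Carboxypeptidase B2-like (r = 0.53) and fibrinogen beta chain-like (r = 0.52) changed by -0.08 and -0.07 at that dose. Kininogen-1 and coagulation factor 2 (r = 0.51 each) changed by -0.21 and -0.19, and none of these was called. Serpind1 was most like fibrinogen beta chain-like (r = 0.58), kininogen-1 (r = 0.56), fetuin-B (r = 0.51, rho = 0.34) and plasma kallikrein (r = 0.51). Without the 2 farthest libraries, r was 0.51 for fibrinogen beta chain-like and 0.44 for fetuin-B. Within exposures, r with fibrinogen beta chain-like was 0.94 for MeNQ, 0.53 for NQ, 0.47 for IMX-101 and 0.23 for TNT. Of these, fibrinogen beta chain-like and kininogen-1 rose with Serpind1 at 40 mg/L IMX-101, and plasma kallikrein changed by 0.05 (adjusted p = 0.912).

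The likeness of other members was to transcripts outside the plasma lists. Retinol-binding protein 2 had its highest r with deoxynucleotidyltransferase terminal-interacting protein 2 (r = 0.86, rho = 0.85, and r = 0.82 without the 2 farthest libraries), followed by ruvB-like 1 (r = 0.85), an ATPase of chromatin-remodelling complexes. Within exposures, r with the first was 0.94 for NQ, 0.91 for MeNQ, 0.82 for IMX-101 and -0.17 for TNT. With ruvB-like 1 it was 0.885 for NQ, 0.90 for MeNQ, 0.84 for IMX-101 and 0.57 for TNT. These 2 transcripts rose by 0.48 and 0.39 at 3.4 mg/L TNT (adjusted p = 0.00115 and 0.0153), where retinol-binding protein 2 fell. None of its 8 closest transcripts was in the enterocyte list, and a part of gut cells in its change was not tested. Fetuin-B was most like progesterone receptor membrane component 1 (r = 0.72, rho = 0.60), which changed by 0.18 at that dose (adjusted p = 0.229). Without the 2 farthest libraries this r was 0.63. Within exposures it was 0.64 for TNT, 0.72 for NQ, 0.85 for MeNQ and 0.33 for IMX-101. The low H5-like heavy chain was most like an inpp1 transcript, named for an inositol phosphatase (r = 0.80, rho = 0.86).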

How the data were processed

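Estimated counts per transcript were deposited by the authors, made with bcl2fastq 1.8.4 and Salmon per the submitters' processing notes (Salmon's version and the reference transcriptome: not given in the sources used here). The deposited expected counts are given per run for 134 runs and as means of runs per library. The BLAST E-value column, a deposited score, was used only as a description. The libraries were stranded, per the labels' protocols. Runs of a library were summed and rounded to whole numbers. Transcripts were filtered with filterByExpr, scaled by TMM and tested with edgeR 4.0.16 (R 4.3.3) quasi-likelihood F tests, 1 fit per exposure with a coefficient per group. P-values were adjusted by Benjamini-Hochberg over all transcripts, with a threshold of 0.05. Slopes used the order of doses. The MeNQ and NQ difference was fitted over their 40 libraries. Standard errors are the log2 fold change over the root of F. Levels in CPM used TMM over all 72 libraries. DESeq2 1.42.0 and the other alternatives are in the closing section. Scripts were tested on simulated data.

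Members named were those called in a dose comparison and the 10 with the highest mean CPM, plus up to 3 transcripts per list with the smallest adjusted p at 3.4 mg/L TNT. The list transcripts given at 40 mg/L IMX-101, the low members, and the transcripts most like a member were chosen after their values were seen. Members and lists were chosen with earlier results of these data known. Where the series text gives other NQ and MeNQ doses than the labels, the labels were used. In 1 column of the run table the first header line names another group than the lines below it, and the lower lines were used. The transcripts have no gene names other than those of their best protein match in Xenopus, and close relatives may share reads.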

Additional observations from a re-analysis of the deposited data

Results flagged for a closer look

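The 10 members with the highest mean CPM gave 180 pairs of a member and a group of 4 libraries. Other members were not looked at. Of these pairs, 16 had a library far from the other 3, by the gap to the nearest library over the range of the group. Chance flags about 1 in 20 groups. Retinol-binding protein 2 had 4 of them: 378.5 CPM in MeNQ control D (others 28.8 to 51.9), 472.1 CPM in NQ control D (others 107 to 168), 306.4 CPM in IMX-101 20 mg/L library A (others 47.9 to 82.3) and 17.85 CPM in TNT 3.4 mg/L library D (others 11.96 to 12.55). The H3-like heavy chain had 3: 120.4 CPM in NQ 750 mg/L library D (others 326 to 357), 172.1 CPM in MeNQ 34 mg/L library A (others 229 to 239) and 288.9 CPM in IMX-101 10 mg/L library D (others 183 to 188). CPAMD8 stood at 68.27 CPM in the same IMX-101 10 mg/L library D (others 39.7 to 43.8) and at 92.64 CPM in MeNQ control C (others 71.4 to 72.4).

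Fetuin-B reached 1062 CPM in IMX-101 10 mg/L library C (others 874 to 902) and 1025 CPM in IMX-101 20 mg/L library B (others 937 to 951). Alpha-2-macroglobulin-like 1 isoform X1 had 90.92 CPM in TNT 1.5 mg/L library B (others 68.3 to 68.4). In MeNQ 170 mg/L library C, alpha-2-macroglobulin-like protein 1 had 138.4 CPM (others 105 to 110) and serpin B6 77.83 CPM (others 69.1 to 70.3). In MeNQ 34 mg/L, Serpind1 had 198.7 CPM in library C (others 267 to 274) and serpin B5-like 15.35 CPM in library D (others 20.4 to 21.3).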

How the results depend on the processing

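Of 23 pairs of a member and a comparison that were called, 15 kept their call in every alternative tried, 0 changed sign, and 246 of 288 alternatives kept the call. These pairs include the called slopes, which all kept their call but had only 5 alternatives each, with no library left out. Calls at a dose had 15 to 18 alternatives. Counts of 0 in NQ, MeNQ and their differences stayed 0 in every alternative, whose shares over all transcripts are not given. At 1.5 mg/L TNT the count of 1 was 0 with a replicate block, 0 with only the 2 groups compared and 0 without the single-run libraries, and 0 to 1 with a replicate left out. At 2.3 mg/L TNT it was 1 without the single-run libraries and 1 to 2 with a replicate left out. At 3.4 mg/L TNT it was 5 to 6 with a replicate left out, 5 with only the 2 groups compared (retinol-binding protein 2, adjusted p = 0.0679), and 7 with DESeq2, which added the sparse alpha-2-macroglobulin as higher. That transcript had 0 counts in all TNT controls and passed the filter through exposed libraries alone. Its direction was thus fixed in advance, and nothing is drawn from this call. At 10 mg/L IMX-101 the count was 0 with a replicate block, 0 with only the 2 groups compared, 3 with DESeq2 and 0 to 1 with a replicate left out. Serpind1 lost its call in every fit with a replicate left out, so a count of 1 there was another member. At 20 mg/L it was 1 with a replicate block and 1 to 2 with a replicate left out. At 40 mg/L it was 2 to 4 with a replicate left out, 3 with DESeq2, which added fetuin-B, and 0 against 20 mg/L within 1 run set. The last compares 2 doses and not a dose with its control, so a change shared by both doses would not show in it. It was counted among the alternatives, and it was the only 1 of 16 in which Serpind1 and CPAMD8 lost their calls at 40 mg/L. The causes of these differences in counts were not tested. Adding the lane as a term for TNT, NQ and MeNQ changed no call, and it could not be fitted for IMX-101. Libraries of different groups with the same letter had correlations between -0.0386 and 0.0852, so the letters do not pair the samples; the block changed no other call count. The runs without TNT control A and TNT 2.3 mg/L D, the lane term, the comparison within 1 run set and the summed alpha-2-macroglobulins were chosen after seeing the data.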
